A study of Mus musculus with 2 samples.

Results

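The genes described are 10 MAP kinase feedback inhibitors of the mouse: the phosphatase genes Dusp1, Dusp2, Dusp4, Dusp5, Dusp6 and Dusp10, the Sprouty genes Spry1 and Spry2, and the Spred genes Spred1 and Spred2. They were chosen by symbol, and all 10 were found among the 23235 gene rows of the deposited table. RNA was sequenced from bone marrow progenitors of C57B6 mice, enriched by lineage depletion and transduced with 2 retroviruses, MIGR1-HA-Hoxa9-ER for the fusion and MIGR1-Flag-Meis1 for its partner. Both groups carried both viruses. Hoxa9-ER is the homeobox factor Hoxa9 fused to the ligand-binding domain of an estrogen receptor, which 4-hydroxytamoxifen (4OHT) keeps in the nucleus, and Meis1 is a homeobox partner of Hoxa9. The cells had been transformed in continuous culture with IL3 and 100 nM 4OHT, were washed 3 times and were then grown for 72 h without 4OHT in its solvent ethanol (EtOH) or again in 100 nM 4OHT. EtOH is the group in which nuclear Hoxa9-ER is lost, and 4OHT is the group in which it is kept. Loss of 4OHT itself and loss of nuclear Hoxa9-ER cannot be told apart, since both groups carried the fusion. The question is which genes change when Hoxa9 is withdrawn from transformed progenitors.

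ERK, p38 and JNK are the main MAP kinases. Growth factor and cytokine receptors switch ERK on through Ras, Raf and Mek, and active ERK induces genes whose products switch the cascade off again. Dual-specificity phosphatases of the Dusp family remove the activating phosphates from the kinases themselves, while Sprouty and Spred proteins act further up, between the receptor, Ras and Raf. IL3, the cytokine of this culture, signals through Ras and ERK as well as through Jak2 and Stat5.

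Each group was 1 sample made from 2 biological replicates, and each gene had 1 value in it, in FPKM (fragments scaled to transcript length and to the mapped fragments of the library). The values below therefore have no replicate error, and how the replicates were combined is not given in the sources used here. Changes are log2((FPKM EtOH + 1)/(FPKM 4OHT + 1)), so that a positive value is higher in EtOH and the change of low genes is understated. "Rose" and "fell" are used of genes that the authors' deposited table calls, with q at or under 0.05. Lists are described by their counts of such genes and by the median change of their members of at least 1 FPKM in either group. Of 11865 genes tested by the authors, 22.5% were called, 12.0% higher and 10.5% lower in EtOH, and the median change of tested genes of at least 1 FPKM was -0.06. FPKM values do not give read totals. From the lowest steps of FPKM times length in single-exon genes, 1 FPKM of a 1 kb transcript stood for very roughly 39.9 fragments in EtOH and 46.5 in 4OHT. In bulk RNA, fewer cells of a type and less RNA per cell cannot be told apart.

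The feedback inhibitors did not move together. Of 10 members 2 rose, Dusp1 and Dusp10, 3 fell, Dusp2, Spry1 and Spred1, and 5 did not pass, Dusp4, Dusp5, Dusp6, Spry2 and Spred2. All 10 were tested by the authors. Of the tested genes in all, 12.0% rose and 10.5% fell. Each called member kept its call at q at or under 0.01, where 16.1% of tested genes were called, 9.41% higher and 6.68% lower. The same held with an added ratio of at least 1.5, where 17.1% were called, 9.89% higher and 7.23% lower. The members' FPKM values summed to 104 in EtOH and 109 in 4OHT. The median change of the 9 members of at least 1 FPKM was -0.03.

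**Figure D1:**
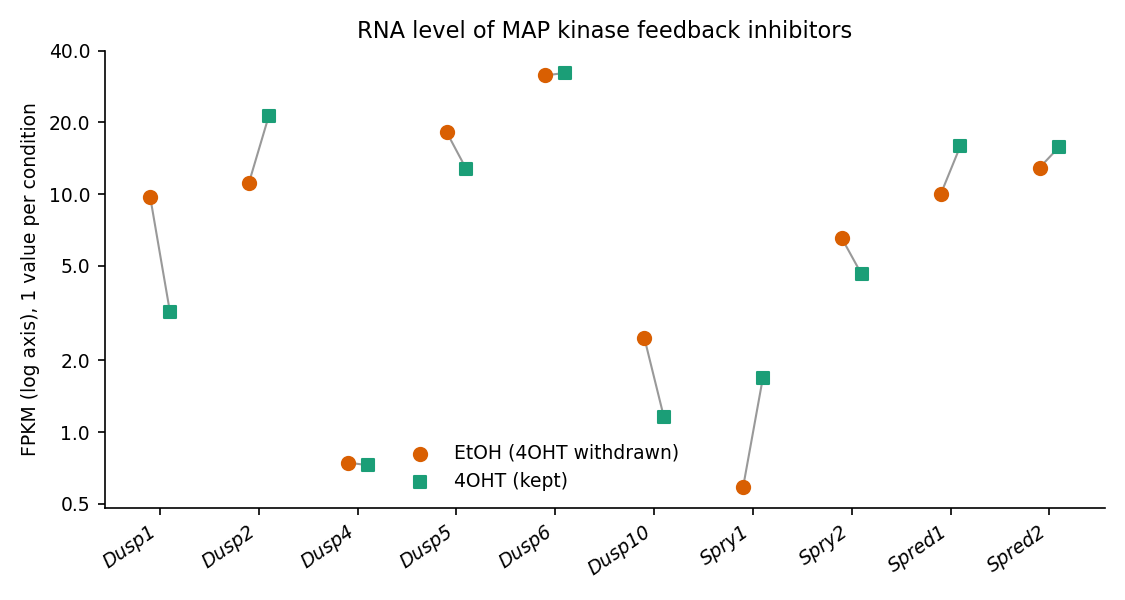
RNA level of the 10 feedback inhibitors in FPKM on a log axis, with circles for EtOH and squares for 4OHT and 1 value per group, so that no error bars can be drawn. Dusp6 lies highest in both groups, at 31.5 FPKM in EtOH and 32.3 FPKM in 4OHT, and the steepest lines are those of Dusp1, at 9.76 FPKM in EtOH and 3.21 FPKM in 4OHT, and Spry1, at 0.587 FPKM in EtOH and 1.69 FPKM in 4OHT.

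The inducible nuclear phosphatases Dusp1, Dusp2, Dusp4 and Dusp5 are early response genes, and their 4 members went different ways: 1 rose, 1 fell and 2 did not pass. Their FPKM values summed to 39.9 in EtOH and 37.9 in 4OHT, so that the sum was nearly equal while its makeup differed. In EtOH Dusp5 was the highest of the 4, followed by Dusp2 and Dusp1. In 4OHT Dusp2 was the highest, followed by Dusp5 and Dusp1.

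Dusp1, also called MKP-1, dephosphorylates p38 and JNK as well as ERK and is induced by growth factors, stress and glucocorticoids. Its RNA had 9.76 FPKM in EtOH, against 3.21 FPKM in 4OHT. That is 3.04 times as much in EtOH, a log2 change of 1.35, and q = 4.17e-10 per the authors' deposited table. Among all tested genes 4.37% had a change at least as large in either direction. The change was 1.57 with a pseudocount of 0.1 FPKM and 0.85 with one of 5 FPKM. Dusp1 lies on chromosome 17, from 26642536 to 26645417 (mm9). Its promoter is shown because it holds the cyclic AMP response element, the binding site of CREB factors, in its full form. The sequence runs over the 250 bases before the RefSeq start, chr17:26508473-26508722 on the minus strand of GRCm38.p6, and the capitals mark TGACG, the core of that element, on either strand.
Dusp1: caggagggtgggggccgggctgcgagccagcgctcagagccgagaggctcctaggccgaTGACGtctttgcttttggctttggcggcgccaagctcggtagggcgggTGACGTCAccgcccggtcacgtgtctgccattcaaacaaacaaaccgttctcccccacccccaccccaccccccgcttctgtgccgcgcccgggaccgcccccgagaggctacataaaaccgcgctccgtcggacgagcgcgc
The second run of capitals is the full element, TGACGTCA, which reads the same on both strands and lies from 143 to 136 bases before the start. Motifs, chosen after the promoters had been seen, were searched on both strands in the windows of the 9 members that matched, all but Dusp4. The shares of windows given here and for the promoters below are therefore a description only. The full element occurred in 1.55% of all 32851 RefSeq promoter windows of that length, and in no other of these 9. The core alone occurred in 17.8% of windows. It lay also in those of Dusp5 and Spred2, which did not pass.

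Dusp2, or PAC-1, is a nuclear phosphatase found mainly in blood cells. It went the opposite way, with 11.2 FPKM in EtOH, against 21.2 FPKM in 4OHT. The log2 change was -0.87, a level 1.90 times as high in 4OHT, and the q-value in the authors' deposited table was 4.38e-05. In 4OHT it was the second most abundant of the 10 members, after Dusp6, and in EtOH it lay behind Dusp6, Dusp5 and Spred2. Dusp2 lies on chromosome 2, from 127161895 to 127164113 (mm9). Its promoter is set beside that of Dusp1 since these 2 genes fill like roles and moved in opposite directions. It covers chr2:127335909-127336158 on the plus strand of GRCm38.p6, and the capitals mark an E-box, CACGTG.
Dusp2: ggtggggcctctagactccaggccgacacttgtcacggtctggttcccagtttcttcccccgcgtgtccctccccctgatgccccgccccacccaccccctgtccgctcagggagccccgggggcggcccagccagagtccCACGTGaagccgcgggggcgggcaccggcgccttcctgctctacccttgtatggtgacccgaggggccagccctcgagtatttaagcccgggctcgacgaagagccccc
The E-box was found in 6.02% of all windows, and the only other one of the 9 to hold it was that of Dusp1, from 126 to 121 bases before its start. A match to GCGNGGGCG, a site of EGR factors, lay in the Dusp2 window from 98 to 90 bases before the start and occurred in 4.7% of windows. No cyclic AMP response element core was found in these letters.

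Dusp5, a nuclear phosphatase selective for ERK, did not pass. Its RNA had 18.2 FPKM in EtOH and 12.7 FPKM in 4OHT, a log2 change of 0.49, with an unadjusted p of 0.0156 and q = 0.0646 per the authors' deposited table. It was the member nearest to the threshold among those that missed it. By level it was the second of the 10 in EtOH and the fifth in 4OHT. Its promoter is shown because it holds adjoining CArG boxes, the sites of serum response factor through which many ERK-induced genes are switched on. It covers chr19:53528895-53529144 on the plus strand of GRCm38.p6, and the capitals mark the boxes.
Dusp5: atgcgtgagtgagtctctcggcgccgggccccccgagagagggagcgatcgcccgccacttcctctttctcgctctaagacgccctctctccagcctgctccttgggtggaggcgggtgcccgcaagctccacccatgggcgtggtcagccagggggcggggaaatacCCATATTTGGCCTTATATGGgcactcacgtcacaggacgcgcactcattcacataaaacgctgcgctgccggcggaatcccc
The boxes lay from 82 to 73 and from 72 to 63 bases before the start. A CArG box occurred in 1.47% of all windows and in no other of the 9. Dusp4, or MKP-2, was the lowest of the phosphatases, with 0.745 FPKM in EtOH and 0.727 FPKM in 4OHT. Its log2 change was 0.02, and q = 0.977 per the authors' deposited table. These levels rest on very roughly 81.3 fragments in EtOH and 92.6 in 4OHT.

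Dusp6, the cytoplasmic phosphatase MKP-3, is specific for ERK and is often used as a readout of ERK activity. It was the most abundant member in both groups, at 31.5 FPKM in EtOH and 32.3 FPKM in 4OHT. The log2 change was -0.03 and the q-value in the authors' deposited table was 0.924. Its sign turns to 0.03 when EtOH is scaled to a median change of 0, and 91.2% of tested genes had a change at least as large. Etv4 and Etv5, ETS factors commonly induced with Dusp6 through ERK and named here after their values were seen, differed from each other. Etv4 fell to 1.92 FPKM in EtOH, against 3.95 FPKM in 4OHT, and Etv5 had 13.8 FPKM in EtOH and 14.5 FPKM in 4OHT and did not pass.

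Dusp10, or MKP-5, prefers p38 and JNK to ERK. It rose, with 2.50 FPKM in EtOH, against 1.15 FPKM in 4OHT, which is 2.17 times as much in EtOH. The log2 change was 0.70, with q = 0.00164 per the authors' deposited table. At this low level the pseudocount decides the size: the change was 1.05 with 0.1 FPKM and 0.29 with 5 FPKM. The levels of Dusp10 rest on very roughly 278 fragments in EtOH and 150 in 4OHT. The gene lies on chromosome 1, from 185858340 to 185899515 (mm9). No searched motif matched the letters of its promoter window, nor those of the windows of Dusp6, Spry2 and Spred1.

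The Sprouty genes differed from each other. Spry1 fell to 0.587 FPKM in EtOH, against 1.69 FPKM in 4OHT, and so was the lowest of the 10 members in EtOH and the eighth in 4OHT. The level in 4OHT was 2.87 times that in EtOH, with a log2 change of -0.76 and q = 0.000385 per the authors' deposited table. The change was -1.38 with a pseudocount of 0.1 FPKM and -0.26 with one of 5 FPKM. Very roughly 58 fragments in EtOH and 195 in 4OHT lie behind these levels. Spry2 had 6.52 FPKM in EtOH and 4.60 FPKM in 4OHT, a log2 change of 0.42, and did not pass, with an unadjusted p of 0.0337 and q = 0.117 per the authors' deposited table. Both encode membrane-linked adaptors that hold back Ras and Raf, and Spry2 also binds the ubiquitin ligase Cbl.

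Spry1 lies on chromosome 3, from 37538872 to 37543521 (mm9). Its promoter is shown because its window holds the core of the binding site of Meis1, which the cells carried on a retrovirus. It covers chr3:37639697-37639946 on the plus strand of GRCm38.p6, and the capitals mark TGACAG.
Spry1: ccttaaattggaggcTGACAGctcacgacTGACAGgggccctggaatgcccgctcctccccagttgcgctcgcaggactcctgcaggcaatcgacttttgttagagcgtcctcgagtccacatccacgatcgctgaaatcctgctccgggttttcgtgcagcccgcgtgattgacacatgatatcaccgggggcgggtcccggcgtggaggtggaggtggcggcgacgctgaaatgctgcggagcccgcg
TGACAG lay from 235 to 230 and from 221 to 216 bases before the start. It occurred on either strand in 15.9% of all windows and in no other of the 9. TGATTNAT, a form of the joint Pbx and Hox site, occurred in 2.82% of windows and was found in none of the 9, which covers only 250 bases each. Neither were TGANTCA, the AP-1 site, with 6.75% of windows, CCGGAAG, an ETS site, with 6.91%, and TTGCNNAA, a C/EBP site, with 9.56%. A match of letters does not show that a factor is bound there.

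Spred proteins carry a Sprouty-like domain and suppress Ras and Raf by bringing the Ras GTPase-activating protein neurofibromin to the membrane. Spred1 fell to 9.99 FPKM in EtOH, against 16.0 FPKM in 4OHT, a log2 change of -0.63. Its q-value in the authors' deposited table was 0.00119, and the level in 4OHT was 1.60 times that in EtOH. Spred2 had 12.9 FPKM in EtOH and 15.8 FPKM in 4OHT, a log2 change of -0.27, and did not pass, and q = 0.25 per the authors' deposited table. The Spred genes were close to each other in 4OHT, and in EtOH Spred1 was the lower one. Together they had 22.9 FPKM in EtOH and 31.8 FPKM in 4OHT. Spred1 lies on chromosome 2, from 116947186 to 117005072 (mm9). Nf1, which encodes neurofibromin and is named after its values were seen, had 1.55 FPKM in EtOH and 2.92 FPKM in 4OHT and did not pass, and q = 0.159 per the authors' deposited table.

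**Figure D2:**
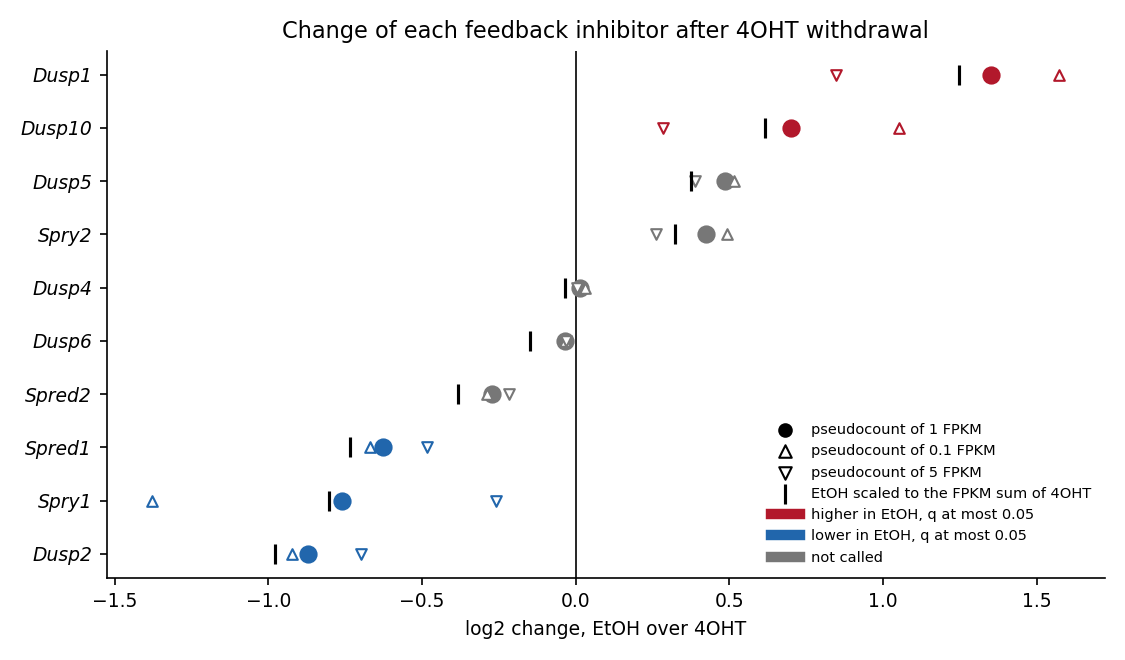
Log2 change of each feedback inhibitor, EtOH over 4OHT, sorted by this change, with Dusp1, the most positive, at the top. Filled circles use a pseudocount of 1 FPKM, open triangles 0.1 or 5 FPKM, and vertical bars EtOH scaled so that both groups have the same FPKM sum; colours give the call of the authors' deposited table (q at or under 0.05). The called members keep their side of 0 under each setting shown, while Dusp4 crosses it with the scaling.

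With the pseudocount of 1 FPKM the members' largest changes, those of Dusp1 and Dusp2, were matched or passed in size by 4.37% and 8.55% of tested genes. Those of Spry1, Dusp10 and Spred1 were matched or passed by 10.6%, 12.1% and 14.2%. The order depends on the pseudocount. As plain ratios Spry1 (2.87 times as high in 4OHT) and Dusp10 (2.17 times as high in EtOH) passed Dusp2 (1.90 times as high in 4OHT). By mean level Dusp6 lay above 77.7% of tested genes, and Dusp4, the lowest, above 6.74%. No member's locus overlapped another row with signal, and at most 1.34% of a member's 50-base words occurred in transcripts of other genes.

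**Figure D3:**
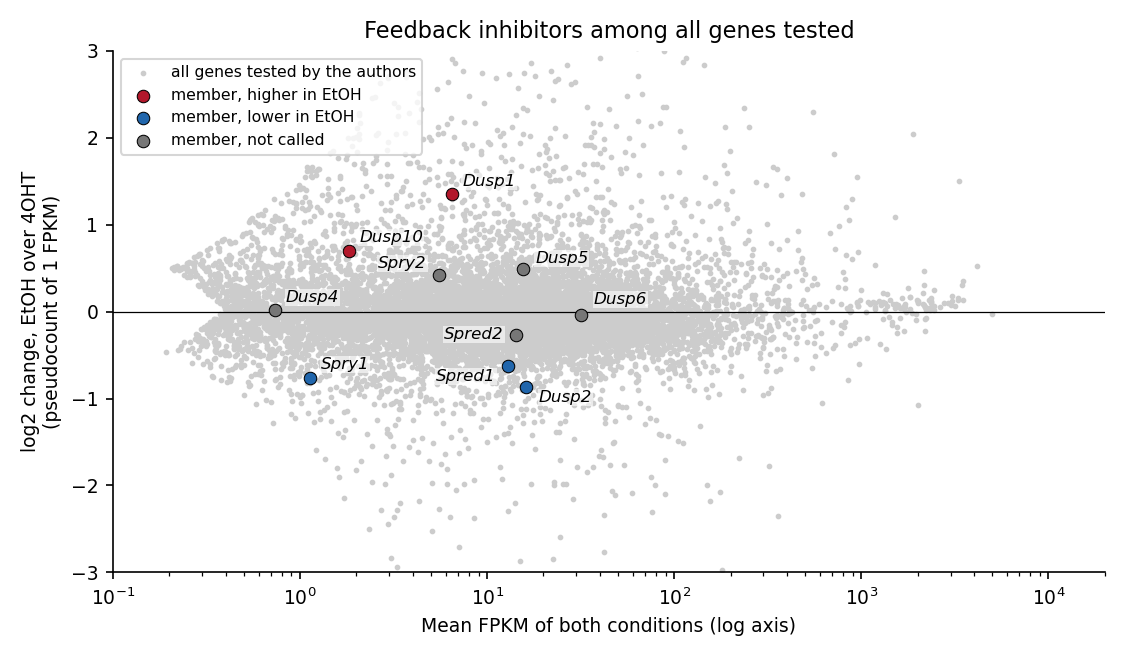
Log2 change, EtOH over 4OHT, against mean FPKM on a log axis for all 11865 tested genes in light grey and the 10 members in colour. The axis ends at a log2 change of 3 in either direction, which leaves out 136 tested genes; Dusp1 at 1.35 is the highest of the members, with 4.37% of tested genes as far from 0, and Dusp2 at -0.87 the lowest.

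Of 21 further Dusp, Spry and Spred genes 13 were tested and 1 was called, against 22.5% of all tested genes. It was Dusp14, named after its values were seen, which rose and lay under 1 FPKM in both groups. Of the 10 with at least 1 FPKM in either group 0 rose and 0 fell at the authors' Cuffdiff q-value of at most 0.05, and 3 had an unadjusted p under 0.05. Those 3 were Dusp12, with 4.80 FPKM in EtOH and 7.66 FPKM in 4OHT, Dusp19, with 6.88 FPKM in EtOH and 10.4 FPKM in 4OHT, and Dusp7, with 4.76 FPKM in EtOH and 6.69 FPKM in 4OHT. Dusp7 encodes MKP-X, a cytoplasmic ERK phosphatase like Dusp6. The closest relatives of Dusp10 in their preference for p38 and JNK, Dusp16 and Dusp8, had log2 changes of 0.26 and 0.06. Dusp8, named after its values were seen, was not tested and was nearly absent, at 0.0878 FPKM in EtOH and 0.0467 FPKM in 4OHT. The most abundant of them was Dusp11, which acts on RNA, at 28.6 FPKM in EtOH and 27.3 FPKM in 4OHT. Dusp3, Dusp18, Dusp23, Dusp28 and Spred3 had log2 changes between -0.17 and 0.11.

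Upstream of the members stand receptors that feed Ras and ERK. Of 27 receptor genes 19 were tested, of which 11 rose, 3 fell and 5 missed the threshold, against 12.0% higher and 10.5% lower among all tested genes, with a median change of 0.50. That median was 0.18 over all 27 genes without a filter on level. The receptor kinase Flt3 fell to 0.239 FPKM in EtOH, against 14.5 FPKM in 4OHT (log2 change -3.64), and so did Pdgfrb, a receptor of platelet-derived growth factor, to 1.74 FPKM in EtOH, against 7.99 FPKM in 4OHT. The fibroblast growth factor receptor Fgfr1 rose to 2.80 FPKM in EtOH, against 0.0771 FPKM in 4OHT. Csf3r, which binds granulocyte colony-stimulating factor, rose to 32.4 FPKM in EtOH, against 10.3 FPKM in 4OHT, and 10.5% of its words were shared with other genes.

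In the ERK cascade itself the share of genes called in either direction was near that of all tested genes, 22.5%. More of its genes rose than fell, while 12.0% of all tested genes rose and 10.5% fell. Of 32 genes from Ras to ERK with their adaptors and exchange factors 26 were tested; 5 rose, 1 fell and 20 missed the threshold, with a median change of 0.02. Mapk3, which encodes ERK1, rose to 82.9 FPKM in EtOH, against 52.1 FPKM in 4OHT (log2 change 0.66). The adaptor Shc1 rose (0.65). Among Ras exchange factors Rasgrp4 rose (0.95) and Rasgrp1 fell (-0.74). The locus of Rasgrp4 overlaps Fam98c, at 19.7 FPKM in EtOH and 17.7 FPKM in 4OHT. Rasgrp2 and Sos2, exchange factors named after their values were seen, rose as well. Rasgrp2 had 78.2 FPKM in EtOH, against 56.3 FPKM in 4OHT, and Sos2 14.8 FPKM in EtOH, against 11.0 FPKM in 4OHT.

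In the p38 and JNK branch, on which Dusp1 and Dusp10 act, 5 of 26 tested genes rose and 1 fell, 20 missed the threshold, and the list had a median change of 0.10. The share called in either direction, too, is near the 22.5% of all tested genes. By direction, 12.0% of all tested genes rose and 10.5% fell, while in this list more rose than fell. Mapk13, which encodes the delta form of p38, rose to 14.3 FPKM in EtOH, against 5.25 FPKM in 4OHT (log2 change 1.29). Gadd45b (0.75) and Gadd45a (0.57), stress-induced activators of this branch, rose as well, and the locus of Gadd45a overlaps E230016M11Rik, at 5.53 FPKM in EtOH and 3.83 FPKM in 4OHT. The gene that fell was Map3k8, counted in this list although its kinase activates Mek downstream of Toll-like receptors. It had 0.837 FPKM in EtOH, against 2.47 FPKM in 4OHT.

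Downstream, more early response genes rose than fell. Of 30 tested genes of this list, which holds genes widely described as induced through ERK and of their ternary complex factors, 13 rose, 3 fell and 14 missed the threshold, against 12.0% and 10.5% of all tested genes. Their median change was 0.33, with 0.20 at a pseudocount of 5 FPKM. The zinc finger factor Egr3 rose to 8.05 FPKM in EtOH, against 0.591 FPKM in 4OHT (log2 change 2.51), and Phlda1 to 6.23 FPKM in EtOH, against 1.06 FPKM in 4OHT (1.81). Plaur, the urokinase receptor, rose by 1.89 and the factor Klf2 by 1.60 on the log2 scale. Etv4, Elk3 and Atf3, named after their values were seen, fell.

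Other negative regulators of Ras, ERK and cytokine receptors were called in both directions. Of 28 tested genes 9 rose and 4 fell, against 12.0% and 10.5% of all tested genes, 15 missed the threshold, and the list had a median change of 0.21. Socs3, an inhibitor of cytokine receptor signalling, rose to 12.7 FPKM in EtOH, against 2.71 FPKM in 4OHT (log2 change 1.88). Its relative Socs2 fell to 11.1 FPKM in EtOH, against 28.03 FPKM in 4OHT (-1.26). Errfi1, a feedback inhibitor of the epidermal growth factor receptor, rose to 2.50 FPKM in EtOH, against 0.311 FPKM in 4OHT (1.42). Zfp36, an mRNA decay factor kept in this list although it does not act on the cascade itself, rose (1.22).

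**Figure D4:**
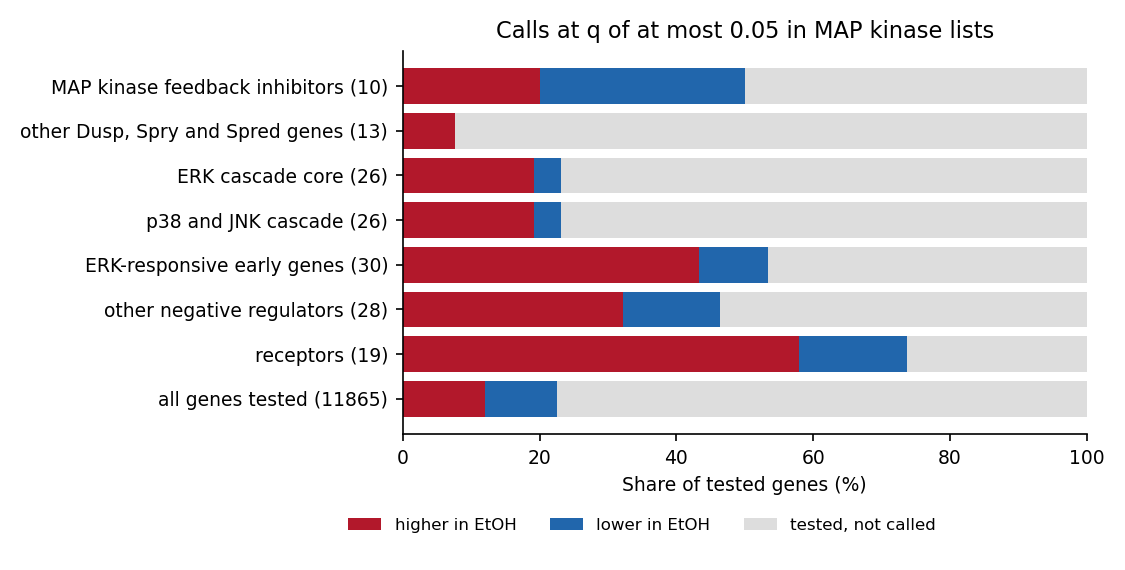
Share of the tested genes of each list that were higher in EtOH, lower in EtOH or not called by the authors' deposited table (q at or under 0.05), with the number tested in parentheses and all 11865 tested genes at the bottom. The feedback inhibitors are split between 2 higher and 3 lower of 10, while the receptors have 11 higher and 3 lower of 19.

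Markers of cell types were called as follows, against 12.0% higher and 10.5% lower among all tested genes. All 10 neutrophil markers rose, with a summed level of 16502 FPKM in EtOH and 221 FPKM in 4OHT. Of 8 eosinophil markers 7 rose (sums of 4703 FPKM in EtOH and 135 FPKM in 4OHT), and all 9 basophil and mast cell markers rose (5216.5 FPKM in EtOH and 1376 FPKM in 4OHT). Of 10 macrophage and monocyte markers 8 were tested, of which 5 rose and 1 fell (173 FPKM in EtOH and 259 FPKM in 4OHT). The sum is lower in EtOH through Emr1, which fell to 102 FPKM in EtOH, against 202 FPKM in 4OHT. Of 11 stem and progenitor markers 9 were tested, of which 3 rose and 5 fell (290.3 FPKM in EtOH and 438.5 FPKM in 4OHT). Among them Kit did not pass, at 10.1 FPKM in EtOH and 7.39 FPKM in 4OHT. Prom1 rose to 17.0 FPKM in EtOH, against 1.69 FPKM in 4OHT. Gata2 (122 FPKM in EtOH and 71.1 FPKM in 4OHT) and Mycn (4.92 FPKM in EtOH and 1.76 FPKM in 4OHT) rose too. Gata2 is counted among the basophil and mast cell markers as well. Cd34 fell to 45.8 FPKM in EtOH, against 124 FPKM in 4OHT, and Cd48, Sox4, Flt3 and Ly6a fell too. Slamf1, at 0.016 FPKM in EtOH and 0.19 FPKM in 4OHT, was nearly absent. Of 6 matched erythroid markers 4 were tested, of which 1 rose and 2 fell (26.4 FPKM in EtOH and 88.5 FPKM in 4OHT). Of 7 stromal and endothelial markers 2 were tested, of which 1 fell (238 FPKM in EtOH and 252 FPKM in 4OHT). Nearly all of that last sum is Pecam1, which did not pass, at 236 FPKM in EtOH and 244 FPKM in 4OHT. Of 6 B cell markers 0 were called by the authors' Cuffdiff test, with 1 tested (1.72 FPKM in EtOH and 1.13 FPKM in 4OHT). Of 6 T cell markers only Lck was tested, and it fell (list sums of 1.60 FPKM in EtOH and 3.67 FPKM in 4OHT). Ebf1, Ms4a1, Pax5, Cd3e, Cd3g, Cd4, Mecom and Col3a1 were listed at 0 in both groups. The part of these cell types in the members' changes was not tested.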

How the data were processed

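RNA was sequenced from 2 samples, EtOH and 4OHT, each of 2 biological replicates. The submitters' processing notes name Cuffdiff 2.0.2, Bowtie2 2.0.0.7, CASAVA 1.8.2 and the build mm9; for annotation, strand setting and library scaling nothing is given in the sources used here. Per the file headers, the authors deposited 1 FPKM value per gene and condition and a p-value and q-value of the comparison, and tested 11865 of 23235 rows. Adjusting the p-values of tested rows by Benjamini-Hochberg gave the deposited q-values to within 1.7e-06. No test across replicates was possible here, so the calls are the authors' Cuffdiff calls. FPKM is relative to the whole library, so abundant RNAs lower all other values.

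Computed here with Python 3.11.15, pandas 2.3.3 and numpy 2.4.6 were log2 changes with a pseudocount of 1 FPKM, list counts and medians, shared 50-base words in GENCODE M21 transcripts, and motif matches in the 250 bases before each RefSeq start (GRCm38.p6), matched for 9 of 10 members. For 8 of these the 50 bases from the start on lie in a GENCODE transcript, read in the same direction. Gene coordinates come from the deposited table (mm9) and are printed 1-based. The value of a fragment is the median of FPKM times length among single-exon genes of 300 to 4000 bases, within 1.5 times the lowest product, and is a rough hint of depth. Members, lists and named genes were chosen with earlier results of these data known, and motifs after the promoters had been seen. Named by rule were all members, other family genes that reach 1 FPKM in a condition and up to 4 called genes with the largest change of each further list; others, markers and genes listed at 0 excepted, are said to be named after their values were seen. Mapksp1 and Adgre1 are other symbols of Lamtor3 and Emr1, which are in the lists; Ear6, Hba-a1 and Hbb-b1 are among the entries not analysed here. Only the call rule and the log2 change were run on simulated data, with large changes and small p-values set in advance. Such genes are bound to be called, so this checks the code alone. Alternatives changed the q threshold, a ratio minimum, the filter, the pseudocount and the scaling of EtOH.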

Additional observations from a re-analysis of the deposited data

How the results depend on the processing

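Every called member kept its call at q at or under 0.01 and with an added ratio of at least 1.5. At these settings 16.1% and 17.1% of tested genes were called, against 22.5%. Both settings are stricter than the main one, so members without a call could not gain one. The called members kept their direction under both other pseudocounts and both scalings. With EtOH scaled so that both groups have the same FPKM sum, the median change of 7820 genes at or over 5 FPKM in both moved from -0.06 to -0.17. The list medians then moved to -0.15 for the feedback inhibitors, -0.10 for the ERK cascade and -0.0088 for the p38 and JNK cascade, and Dusp4 turned to -0.03. With EtOH scaled to a median change of 0, the median of the feedback inhibitors turned to 0.03. The early response genes had a median of 0.44 with a pseudocount of 0.1 FPKM and 0.20 with 5 FPKM, and the receptors 0.69 with 0.1 FPKM. Without a filter on level the medians were 0.18 for the receptors and 0.092 for the other negative regulators. Requiring a ratio of at least 1.5 left 3 genes of the ERK cascade and 2 of the p38 and JNK cascade higher in EtOH, against 5 each. Of the other family genes 0 were higher at a q-value of at most 0.01 and 0 with the filter of 1 FPKM, against 1, Dusp14. A median was counted as moved beyond 0.1, since no replicate spread could be computed. No paired analysis was possible because each group has 1 value per gene, and for the same reason no replicate could be left out. Levels near 1 FPKM, as of Spry1, Dusp4 and, in 4OHT, Dusp10, rest on the fewest fragments.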

Other observations

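Cish and Socs1 belong to the same family as Socs3 and Socs2, inhibitors of cytokine receptors that are induced by Stat factors. Cish had 98.5 FPKM in EtOH, against 53.5 FPKM in 4OHT, and q = 3.49e-08 per the authors' deposited table. Socs1 had 39.1 FPKM in EtOH, against 17.6 FPKM in 4OHT, with a q-value of 3.23e-08 there. Both rose and were named after their values were seen.

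Some further Dusp and Spry genes lay under 1 FPKM in both groups. Dusp14 had 0.863 FPKM in EtOH, against 0.285 FPKM in 4OHT, and q = 0.032 per the authors' deposited table. Spry4 had 0.659 FPKM in EtOH and 0.505 FPKM in 4OHT and did not pass. Both were named after their values were seen. Dusp15, Dusp21, Dusp26, Dusp27 and Spry3 were listed at 0 in both groups.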
